A study of Mus musculus with 12 samples.

Results

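Extracellular ATP and adenosine signaling in MDSCs was read through 10 genes that were chosen by name: the ectonucleotidases Entpd1 and Nt5e, the adenosine-degrading enzyme Ada, the adenosine receptors Adora2a, Adora2b, and Adora3, the ATP-gated channels P2rx4 and P2rx7, and the nucleotide receptors P2ry2 and P2ry6. The choice was made with earlier results of these data known. They are 10 of the 35303 gene symbols in the count table, and all 10 were among the 17676 symbols tested and had a mean normalized count above 50. The study compared 3 groups of MDSC-like cells, which are immunosuppressive myeloid cells, with 4 libraries each. The control group, MDSC, was unmodified. MDSC-NP-Blk cells carried blank nanoparticles (NPs) made of PLGA, a biodegradable polymer. CITED cells carried the same kind of NP loaded with rapamycin, an inhibitor of the mTOR kinase. All 3 groups were wild type by label and were kept in medium with IL-6 before RNA was taken. The cells had been grown with GM-CSF and IL-6 from the marrow of young female C57BL/6 mice, selected with a CD11b+Gr1+ kit, and coupled to the NPs through azido groups placed on their surface. Whether the unmodified MDSCs of this experiment also received the azido sugar was not stated. Any effect of that sugar and of the coupling step therefore cannot be told apart from that of the particle. The study describes the cultures as a mixture of monocytic and granulocytic cells, and in such bulk RNA a change in the share of a cell type and a change in RNA per cell cannot be told apart. The titles call the libraries biological replicates, but which animals or cultures they came from was not stated, so the p-values measure the spread between these 4 libraries per group.

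Cells release ATP when they are stressed or damaged, and ATP outside the cell is read as an alarm by P2X channels and P2Y receptors. Entpd1 (CD39) strips ATP and ADP down to AMP, and Nt5e (CD73) turns AMP into adenosine. Adenosine restrains immune cells, mainly through Adora2a and Adora2b, which raise cAMP, whereas Adora3 lowers it. Ada ends the signal by turning adenosine into inosine. Myeloid suppressor cells are known to carry both ectonucleotidases, and the adenosine made there is one of the means by which they hold back T cells. Only RNA was measured here, and neither the proteins nor ATP, adenosine, or inosine were.

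Between 20604809 and 37855478 counts were assigned to genes per library, and the deepest library was MDSC-NP-Blk replicate 2. A normalized count here is a count divided by the TMM-scaled size of its library, on the scale of the mean library. A gene passed the test at an adjusted p below 0.05 in edgeR's quasi-likelihood test, and it was called when its log2 fold change was also at least 1 in size. The label for tissue names the CNS, but Gfap, Aqp4, Rbfox3, and Snap25 had no count in any library, whereas Itgam, Ly6g, Ly6c2, and Csf3r, markers of MDSCs, had mean normalized counts of 3924 to 69848 over the 3 groups. Other cell types were followed through lists of their markers. The summed level of 8 T cell markers was 159 to 171 CPM (counts scaled to a common library size) in MDSC, 140 to 160 with blank NPs, and 56.4 to 65.1 in CITED, of which Thy1 made up nearly all, since the other 7 had mean normalized counts below 50. That of 6 B cell markers was 12.7 to 15.3, 7.59 to 10.3, and 3.15 to 4.66 CPM, and that of 8 mast cell and basophil markers was 317 to 340, 382 to 472, and 238 to 245 CPM. The 6 monocytic markers summed to 847 to 909, 1138 to 1232, and 1164 to 1201 CPM, a sum carried by Csf1r (mean normalized counts of 11287, 21112, and 22511), while Ccr2 (3574, 2243, and 1578) and F13a1 (3023, 1960, and 490.0) fell. The 7 granulocytic markers summed to 34058 to 38100, 48205 to 50838, and 35341 to 39991 CPM. Against MDSC, 6 of them passed as higher and 0 as lower with blank NPs, but 2 as higher and 3 as lower in CITED. Mmp8 (mean normalized counts of 46145, 86218, and 127416) and Cxcr2 (8058, 13513, and 14002) rose. Camp (14390, 13254, and 6238) fell, and Ngp (172863, 268900, and 129850) was lowest in CITED. The 6 erythroid and megakaryocyte markers summed to 146 to 168, 224 to 236, and 213 to 234 CPM, and the 6 dendritic cell markers to at most 12.4 CPM in any library. These lists differed between the groups, as the genes below did, and their part in the results was not tested. The 4 MDSC-NP-Blk libraries fell into pairs, replicates 1 and 4 against replicates 2 and 3, with a chi-square per degree of freedom between libraries of 5.69 to 5.91 within the pairs and 15.7 to 21.8 across them. Of the 10 genes, 7 were higher in both replicates 2 and 3 than in both replicates 1 and 4, against 29.7% of 10555 expressed genes. Where a result for one of the 10 genes changed its side of the threshold with 1 of these pairs alone, that value is given below.

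Per transcript length, the order of the 10 genes differed between groups. In MDSC the highest level was that of Nt5e, with 47.5 ± 2.65 CPM per kilobase (mean ± SD, n = 4). It was followed by Adora2b with 31.0 ± 1.24, P2rx4 with 24.1 ± 0.684, and Entpd1 with 13.8 ± 0.375, with no overlap between neighbors in this order. Ada (10.8 ± 0.773) and Adora3 (10.2 ± 0.602) came next and overlapped, then P2ry6 with 7.13 ± 0.536, and last Adora2a, P2rx7, and P2ry2, whose levels of 2.40 to 3.01 overlapped from each to the next. In both groups with NPs, Adora2b stood above Nt5e. Its level was 68.8 ± 4.95 against 55.6 ± 4.80 for Nt5e in MDSC-NP-Blk, and 75.7 ± 2.84 against 57.2 ± 2.03 in CITED, without overlap. P2rx4 reached 52.5 ± 1.74 in CITED, where its libraries overlapped those of Nt5e. Ada went from the 5th place in MDSC to the 7th in MDSC-NP-Blk and the 9th in CITED, where its 3.12 ± 0.296 overlapped the 3.05 ± 0.244 of P2rx7, the last in that order. These levels use the canonical GENCODE transcript of each gene, 1.69 to 8.38 kilobases long, and a cell that uses another transcript would have another level. They were not corrected for a trend with transcript length that differed between the groups. With that correction, the log2 fold change in CITED against MDSC moved from 1.29 to 1.12 for Adora2b and from 0.27 to 0.36 for Nt5e. In MDSC-NP-Blk it moved from 1.15 to 1.01 and from 0.23 to 0.29. The order was not worked out again on corrected levels.

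**Figure D1:**
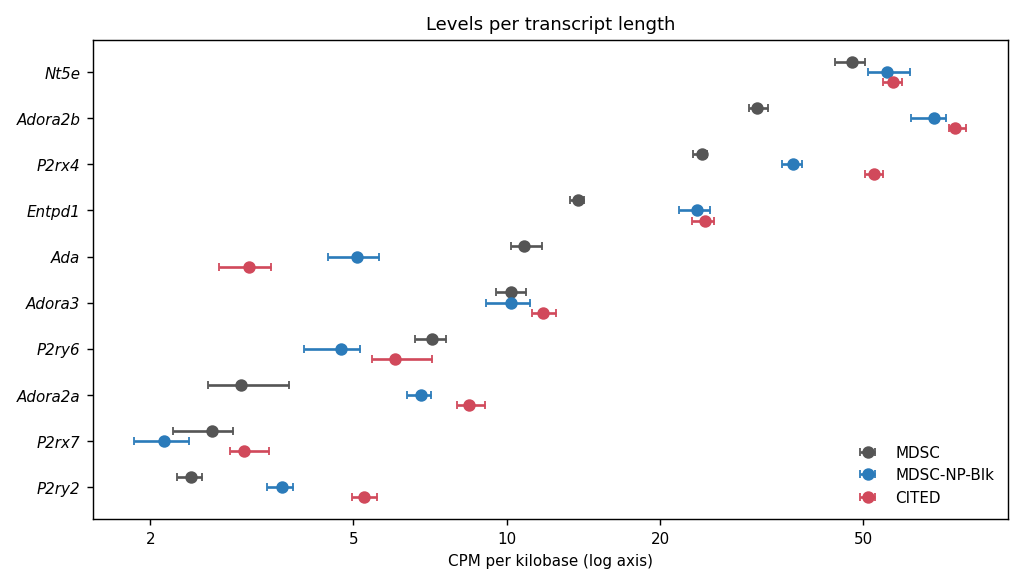
CPM per kilobase of canonical transcript (x axis, log scale) for the 10 genes (y axis) in MDSC, MDSC-NP-Blk, and CITED. Points are means of 4 libraries and bars run from the lowest to the highest library. Nt5e led in MDSC at 47.5, whereas Adora2b led in MDSC-NP-Blk at 68.8 and in CITED at 75.7.

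Among the 10 genes, 7 passed the test as higher and 1 as lower in CITED against MDSC, beside 22.2% of all tested genes that were higher and 22.2% that were lower. These shares are over all 17676 tested genes, of which 10555 had a mean normalized count above 50, as all 10 genes did. Shares over the 10555 alone were not worked out. Called genes were 4 higher (Adora2a, Adora2b, P2rx4, P2ry2) and 1 lower (Ada), beside 3.28% and 6.70% of all tested genes. In MDSC-NP-Blk against MDSC, 6 were higher and 3 lower (background 19.9% and 18.6%), with 2 called higher (Adora2a, Adora2b) and 1 lower (Ada), beside 1.88% and 2.86%. In CITED against MDSC-NP-Blk, 5 were higher and 1 lower (background 10.5% and 11.4%), and none was called, beside 0.651% and 2.00% of all genes. With library totals in place of TMM factors, the called genes were 2 higher and 1 lower in CITED and 0 higher and 1 lower in MDSC-NP-Blk, against MDSC. P2rx4 and P2ry2 were then at 0.854 each in CITED, and Adora2a and Adora2b at 0.913 and 0.887 in MDSC-NP-Blk, and 5 genes passed as higher in each comparison, with 2 and 4 lower. With the correction for transcript length, Entpd1 was also called in CITED (1.02), and with MDSC-NP-Blk replicates 2 and 3 alone, Ada was not called in MDSC-NP-Blk (-0.97). The median log2 fold change of the 10 genes was 0.55, 0.41, and 0.26 in the 3 comparisons, and that of all tested genes was -0.05, -0.03, and 0.00. The comparisons share libraries, so their values are set side by side and not counted as independent. Since the 10 genes were chosen with earlier results known, their counts and medians describe them and are no test of the set.

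**Figure D2:**
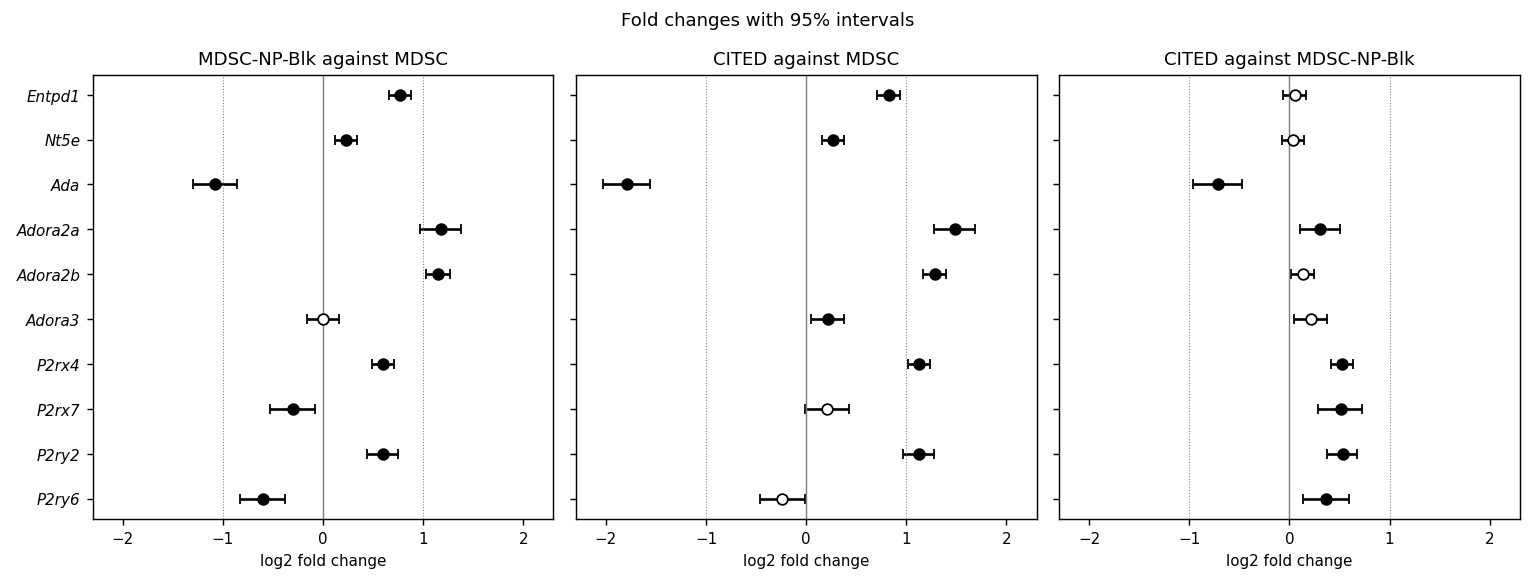
Log2 fold change (x axis) of the 10 genes (y axis) in MDSC-NP-Blk against MDSC, CITED against MDSC, and the 2 groups with NPs against each other, with 95% intervals. Filled points passed edgeR's quasi-likelihood test at an adjusted p below 0.05, open points did not, and dotted lines mark a log2 fold change of 1 in size. Ada lay below 0 in every panel, at -1.08, -1.79, and -0.71, and Adora2a and Adora2b lay above 1 in both comparisons with MDSC.

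The promoters of Adora2b, P2rx4, and Ada are shown because these genes were the most abundant adenosine receptor, the most abundant P2X channel, and the gene that fell furthest. RefSeq promoter sequences (GRCm38.p6) matched 8 of the 10 genes, with 11 start sites, and the 250 bases before each start were searched on both strands for 5 motifs. Capitals mark GC boxes, GGGCGG read on either strand, which can overlap each other. GC boxes lay in 32.7% of all 32851 promoters of this length. Adora2b (chr11:62248734-62248983, plus strand) held 6 of them between 9 and 222 bases before the start, Ada (chr2:163750240-163750489, minus strand) held 1 at 44 bases, and P2rx4 (chr5:122707294-122707543, plus strand) held none.
Adora2b: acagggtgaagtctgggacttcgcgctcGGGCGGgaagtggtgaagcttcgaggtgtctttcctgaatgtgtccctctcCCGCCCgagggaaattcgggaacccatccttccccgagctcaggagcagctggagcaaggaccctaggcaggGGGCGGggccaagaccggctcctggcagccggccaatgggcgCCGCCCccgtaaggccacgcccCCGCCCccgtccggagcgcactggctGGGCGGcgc
P2rx4: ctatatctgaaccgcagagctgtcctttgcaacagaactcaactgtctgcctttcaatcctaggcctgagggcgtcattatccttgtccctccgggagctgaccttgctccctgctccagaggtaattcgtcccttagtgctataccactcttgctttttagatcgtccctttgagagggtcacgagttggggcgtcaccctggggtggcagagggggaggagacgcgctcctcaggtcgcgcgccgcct
Ada: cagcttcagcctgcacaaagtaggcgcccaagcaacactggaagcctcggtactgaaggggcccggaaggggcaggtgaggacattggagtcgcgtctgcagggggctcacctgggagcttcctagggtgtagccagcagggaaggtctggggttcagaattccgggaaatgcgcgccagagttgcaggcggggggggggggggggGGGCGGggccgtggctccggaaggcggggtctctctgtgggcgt
The GC content of these windows was 69.6%, 57.2%, and 67.2%, beside a median of 52.4% over all promoters. None of the 3 held the cAMP response element TGACGTCA (1.55% of all promoters), the hypoxia response core ACGTG (16.6%), the CEBP-ATF element TTGCATCA (0.791%), or the PU.1 core GAGGAAG (10.6%) in these bases. Among the other genes searched, P2ry2 held ACGTG on both strands, 17 and 18 bases before 1 of its starts. The PU.1 core lay 29 bases before the start of Adora3 and 227 bases before 1 start of Entpd1. Such a match or its absence describes the letters and does not show binding. Gene positions in the rest of the text are those of GRCm39, the build used for the counts, and are not on the same scale as these promoter positions.

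Both ectonucleotidases were higher in the cells that carried NPs, Entpd1 by more than Nt5e, and neither passed the test between CITED and MDSC-NP-Blk. Entpd1 (chr19:40600810-40731585) had normalized counts of 1888, 2008, 1945, and 1988 in the 4 MDSC libraries, 3084, 3488, 3535, and 3237 in MDSC-NP-Blk, and 3421, 3275, 3613, and 3556 in CITED. Every library with NPs lay above every MDSC library, and the groups with NPs overlapped each other. The log2 fold change was 0.77 (SE 0.0551) in MDSC-NP-Blk and 0.83 (SE 0.0552) in CITED against MDSC, which is 1.71-fold and 1.77-fold (edgeR, adjusted p = 1.1e-13 and 9e-15). CITED differed from MDSC-NP-Blk by 0.06 (95% interval -0.06 to 0.17, edgeR, adjusted p = 0.54).

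Nt5e (chr9:88209089-88254146), the enzyme that makes adenosine, had normalized counts of 4879.6, 4852, 4503, and 5164 in MDSC, 5216, 5827, 6309, and 5383 in MDSC-NP-Blk, and 5811, 5581, 6079, and 5906 in CITED. The libraries with NPs lay above those of MDSC without overlap, but the highest MDSC library and the lowest MDSC-NP-Blk library nearly met. Nt5e was 1.17-fold higher in MDSC-NP-Blk (log2 0.23, SE 0.0554, edgeR, adjusted p = 0.00095) and 1.21-fold higher in CITED (log2 0.27, SE 0.0555, edgeR, adjusted p = 0.00011). With MDSC-NP-Blk replicates 1 and 4 alone, the first value was 0.11 (edgeR, adjusted p = 0.10), and with replicates 2 and 3 alone it was 0.32 (edgeR, adjusted p = 6.5e-07). With library totals in place of TMM factors, the rise in Nt5e was absent in both comparisons (log2 -0.032 in MDSC-NP-Blk and -0.005 in CITED). CITED and MDSC-NP-Blk differed by 0.04 (95% interval -0.07 to 0.15, edgeR, adjusted p = 0.69).

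Ada moved the other way from the enzymes that make adenosine, and it was the only gene of the 10 that was lower in all 3 comparisons. Ada (chr2:163565705-163592159) had normalized counts of 422, 469, 422, and 484 in MDSC, 200.0, 233, 226, and 185 in MDSC-NP-Blk, and 143, 132, 113, and 131 in CITED. No library of a group overlapped one of another group, with MDSC highest and CITED lowest. Ada was 2.12-fold lower in MDSC-NP-Blk than in MDSC (log2 -1.08, SE 0.109, edgeR, adjusted p = 3.9e-10) and 3.46-fold lower in CITED (log2 -1.79, SE 0.115, edgeR, adjusted p = 3.3e-15). CITED was a further 1.64-fold below MDSC-NP-Blk (log2 -0.71, SE 0.120, edgeR, adjusted p = 2e-05). Ada overlaps Pkig on the opposite strand, a gene with 345 to 651 counts per library, and whether strand was used in counting was not stated.

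The ratio of Nt5e to Ada, in counts per kilobase, sets the maker of adenosine against its remover and was looked at after their values were seen. It was 4.20 to 4.70 in the MDSC libraries, 10.2 to 11.8 with blank NPs, and 16.6 to 21.9 in CITED. The groups did not overlap. The ratio of Nt5e to Entpd1 went the other way, from 3.44 ± 0.189 (SD, n = 4) in MDSC to 2.36 ± 0.0778 with blank NPs and 2.34 ± 0.0269 in CITED. These are ratios of RNA levels with no test, and the activity of the enzymes was not measured.

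**Figure D3:**
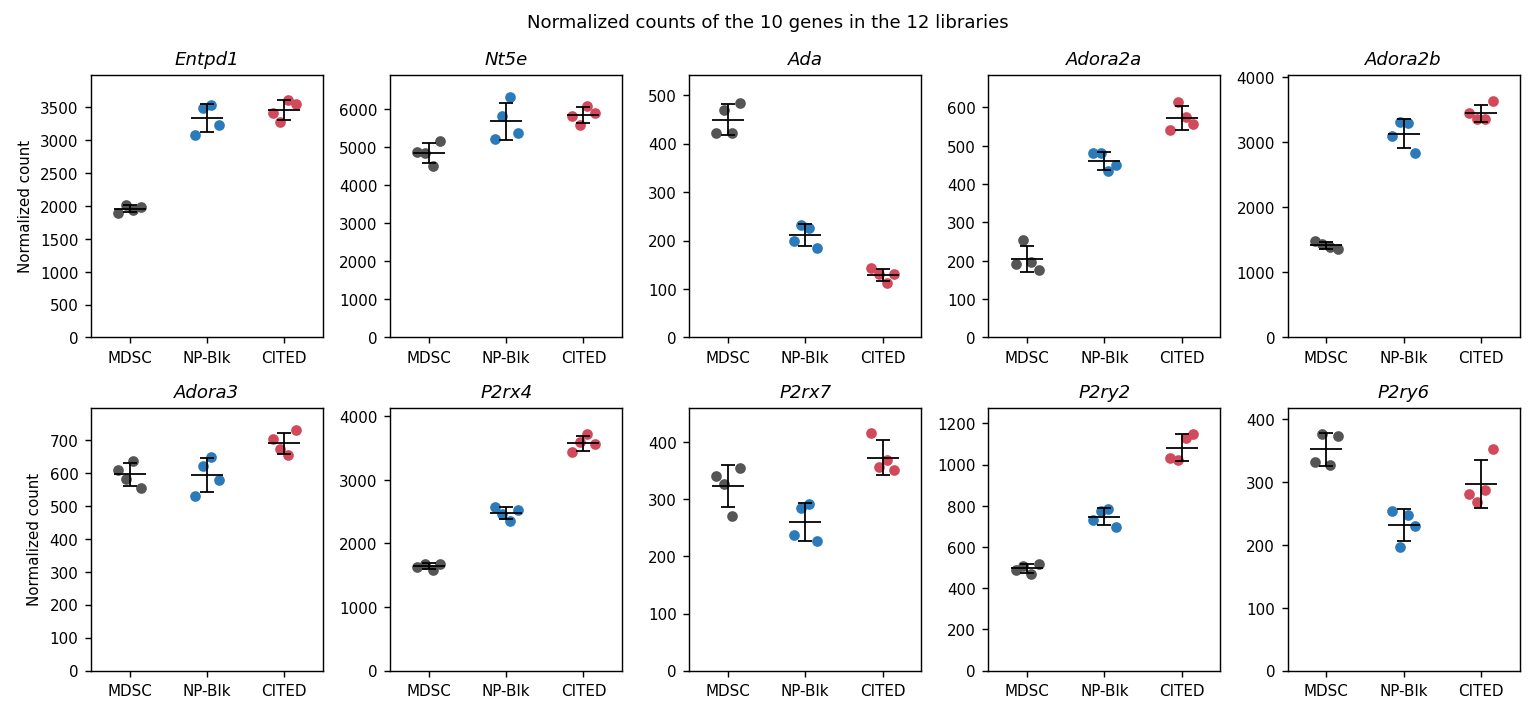
Normalized counts (y axis, from 0) of the 10 genes in the 4 libraries each of MDSC, MDSC-NP-Blk (NP-Blk), and CITED. Points are libraries in the order of their replicate numbers, and bars are the mean ± SD. Ada stepped down from a mean of 449 to 211 and 130.0, Adora2b stepped up from 1412 to 3132 and 3445, and P2rx7 and P2ry6 were lowest in MDSC-NP-Blk.

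Of the adenosine receptors, Adora2a and Adora2b both rose more than 2-fold in the cells with NPs, while Adora3 stayed within 1.16-fold of MDSC in both groups. Adora2b (chr11:62139804-62157279), a receptor that answers to high adenosine, had normalized counts of 1482, 1431, 1382, and 1354 in MDSC, 3098, 3308, 3295, and 2826 in MDSC-NP-Blk, and 3452, 3348, 3354, and 3625 in CITED. Every MDSC library lay below every library with NPs, and every CITED library lay above every MDSC-NP-Blk library by a small margin. The rise over MDSC was 2.22-fold in MDSC-NP-Blk (log2 1.15, SE 0.0579, edgeR, adjusted p = 1.8e-17) and 2.44-fold in CITED (log2 1.29, SE 0.0580, edgeR, adjusted p = 2.7e-19). CITED against MDSC-NP-Blk was 0.14 (95% interval 0.02 to 0.25) and did not pass the test (edgeR, adjusted p = 0.083). This difference rested on the MDSC-NP-Blk libraries taken: it was 0.22 with replicates 1 and 4 alone (edgeR, adjusted p = 0.0068) and 0.06 with replicates 2 and 3 alone (edgeR, adjusted p = 0.53). Without replicate 3 it was 0.16 (edgeR, adjusted p = 0.043), and DESeq2 gave 0.14 (adjusted p = 0.041).

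Adora2a (chr10:75152560-75170628), a receptor that raises cAMP at low adenosine, had normalized counts of 191, 253, 197, and 176 in MDSC, 480.0, 481, 433, and 450.0 in MDSC-NP-Blk, and 540.0, 613, 576, and 557 in CITED. The 3 groups did not overlap, and the spread was widest in MDSC, where replicate 2 was highest. Adora2a was 2.26-fold higher in MDSC-NP-Blk (log2 1.17, SE 0.102, edgeR, adjusted p = 1.3e-11) and 2.80-fold higher in CITED (log2 1.48, SE 0.102, edgeR, adjusted p = 1.7e-14). CITED was 1.24-fold above MDSC-NP-Blk (log2 0.31, SE 0.0964, edgeR, adjusted p = 0.017). It no longer passed without CITED replicate 2 (log2 0.28, edgeR, adjusted p = 0.061) and with MDSC-NP-Blk replicates 1 and 4 alone (log2 0.30, edgeR, adjusted p = 0.073), and did with replicates 2 and 3 alone (log2 0.32, edgeR, adjusted p = 0.032). Since both receptors rose, the ratio of Adora2b to Adora2a per kilobase was 8.41 to 11.5 in MDSC, 9.35 to 11.3 with blank NPs, and 8.13 to 9.70 in CITED, with overlapping libraries.

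Adora3 (chr3:105778174-105816242), which lowers cAMP, had normalized counts of 609, 582, 636, and 554 in MDSC, 530.0, 620.0, 647, and 579 in MDSC-NP-Blk, and 702, 674, 654, and 729 in CITED. MDSC and MDSC-NP-Blk overlapped throughout, and every CITED library lay just above both. The CITED value was 1.16-fold that of MDSC (log2 0.21, SE 0.0800, edgeR, adjusted p = 0.028). It did not hold without MDSC replicate 2 or 4 or CITED replicate 1 or 4 (log2 0.18 to 0.20, edgeR, adjusted p = 0.060 to 0.11), and a correction for transcript length gave 0.13 (edgeR, adjusted p = 0.22). With library totals in place of TMM factors its sign turned in CITED (log2 -0.061, edgeR, adjusted p = 0.57), and Adora3 was lower in MDSC-NP-Blk than in MDSC (log2 -0.26, edgeR, adjusted p = 0.0079). Against MDSC-NP-Blk the difference was also 0.21 (95% interval 0.05 to 0.38) and just missed the threshold (edgeR, adjusted p = 0.054). It passed with DESeq2 (adjusted p = 0.032), in edgeR with 3 other factors or filters (adjusted p = 0.034 to 0.048) and without MDSC-NP-Blk replicate 3 or CITED replicate 3 (adjusted p = 0.031 and 0.049), and with MDSC-NP-Blk replicates 1 and 4 alone (log2 0.32, edgeR, adjusted p = 0.015) but not with replicates 2 and 3 alone (log2 0.13, edgeR, adjusted p = 0.38). Adora3 shares 25.4% of its 31-base words with other transcripts, mainly those of the overlapping Tmigd3 on the same strand, to which 0 to 10 counts were assigned per library, so the split between these genes is uncertain. Adora1, the fourth adenosine receptor, had no count in any of the 12 libraries, which allows up to 3 counts per library.

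P2rx4 (chr5:122845541-122867803) encodes an ATP-gated cation channel found on the surface and in the lysosomes of myeloid cells, and it rose in steps across the groups. Its normalized counts were 1621, 1679, 1578, and 1669 in MDSC, 2577, 2459, 2352, and 2532 in MDSC-NP-Blk, and 3433, 3593, 3720.4, and 3556 in CITED. The groups were far apart and none overlapped. P2rx4 was 1.51-fold higher in MDSC-NP-Blk than in MDSC (log2 0.60, SE 0.0535, edgeR, adjusted p = 2.5e-11) and 2.18-fold higher in CITED (log2 1.13, SE 0.0536, edgeR, adjusted p = 1e-18). The step from MDSC-NP-Blk to CITED was 1.44-fold (log2 0.53, SE 0.0528, edgeR, adjusted p = 9.8e-10).

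P2rx7 (chr5:122781942-122830400), the channel through which high ATP triggers the inflammasome, lay close to P2rx4 on the chromosome but had another pattern. Its normalized counts were 340.0, 326, 270.0, and 354 in MDSC, 238, 285, 291, and 227 in MDSC-NP-Blk, and 417, 356, 369, and 351 in CITED. MDSC-NP-Blk was lowest and lay below CITED without overlap, while MDSC overlapped both. CITED was 1.42-fold above MDSC-NP-Blk (log2 0.51, SE 0.110, edgeR, adjusted p = 0.00056). The lower level in MDSC-NP-Blk than in MDSC (log2 -0.30, SE 0.109, edgeR, adjusted p = 0.026) was lost without MDSC replicate 1 or 4 or MDSC-NP-Blk replicate 1 or 4 (log2 -0.28 to -0.25, edgeR, adjusted p = 0.073 to 0.094), with MDSC-NP-Blk replicates 2 and 3 alone (log2 -0.17, edgeR, adjusted p = 0.34), and with the correction for transcript length (log2 -0.21, edgeR, adjusted p = 0.12). With MDSC-NP-Blk replicates 1 and 4 alone it was -0.49 (edgeR, adjusted p = 0.0024). CITED against MDSC gave 0.21 (95% interval -0.01 to 0.43, edgeR, adjusted p = 0.12), 0.35 after a correction for transcript length (edgeR, adjusted p = 0.0054), and -0.066 with library totals alone (edgeR, adjusted p = 0.65). Per kilobase, P2rx4 exceeded P2rx7 by 9.19 ± 0.933 times (SD, n = 4) in MDSC, 17.4 ± 2.76 times with blank NPs, and 17.3 ± 1.67 times in CITED.

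P2ry2 (chr7:100640649-100663957), a receptor for ATP and UTP that guides phagocytes toward dying cells, had normalized counts of 489, 508, 467, and 519 in MDSC, 730.0, 775, 786, and 696 in MDSC-NP-Blk, and 1032, 1022, 1127, and 1148 in CITED. As with P2rx4, the 3 groups were separate, with CITED highest. P2ry2 was 1.51-fold higher in MDSC-NP-Blk (log2 0.59, SE 0.0759, edgeR, adjusted p = 6.1e-08) and 2.19-fold higher in CITED than in MDSC (log2 1.13, SE 0.0755, edgeR, adjusted p = 9.1e-15). With the correction for transcript length, these log2 values were 0.83 and 1.45 (edgeR, adjusted p = 6.4e-12 and 2.1e-19). CITED was 1.45-fold above MDSC-NP-Blk (log2 0.53, SE 0.0740, edgeR, adjusted p = 7.4e-07).

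P2ry6 (chr7:100585308-100624173), the neighboring gene and a receptor for UDP that promotes phagocytosis, had normalized counts of 332, 376, 327, and 374 in MDSC, 254, 197, 248, and 231 in MDSC-NP-Blk, and 281, 268, 288, and 353 in CITED. MDSC-NP-Blk was lowest, without overlap with either group, and CITED lay between, with replicate 4 inside the range of MDSC. P2ry6 was 1.52-fold lower in MDSC-NP-Blk than in MDSC (log2 -0.60, SE 0.111, edgeR, adjusted p = 3.2e-05). In CITED it was 1.29-fold above MDSC-NP-Blk (log2 0.37, SE 0.114, edgeR, adjusted p = 0.016), which no longer passed without MDSC-NP-Blk replicate 2 (log2 0.29, edgeR, adjusted p = 0.093) or CITED replicate 4 (log2 0.27, edgeR, adjusted p = 0.12) and with MDSC-NP-Blk replicates 1 and 4 alone (log2 0.30, edgeR, adjusted p = 0.13), and did with replicates 2 and 3 alone (log2 0.43, edgeR, adjusted p = 0.012). Against MDSC, the CITED value of -0.24 (95% interval -0.46 to -0.01) missed the threshold (edgeR, adjusted p = 0.080). It passed without CITED replicate 4 (log2 -0.33, edgeR, adjusted p = 0.020), after a correction for transcript length (log2 -0.38, edgeR, adjusted p = 0.0034), with library totals alone (log2 -0.51, edgeR, adjusted p = 0.00018), and with MDSC-NP-Blk replicates 1 and 4 alone (log2 -0.25, edgeR, adjusted p = 0.044). The ratio of P2ry2 to P2ry6 per kilobase was 0.324 to 0.353 in MDSC, 0.687 to 0.940 with blank NPs, and 0.779 to 0.938 in CITED.

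The other genes of the pathway came from 7 lists and are described by their counts, to be read against all tested genes, of which 22.2% rose and 22.2% fell in CITED relative to MDSC, and 19.9% rose and 18.6% fell with blank NPs. Among the remaining P2X channels, 0 of 4 tested passed as higher and 1 as lower in CITED against MDSC. That gene was P2rx1, an ATP-gated channel of platelets and neutrophils, with means of 295 ± 19.5 (SD, n = 4) in MDSC, 288 ± 46.7 with blank NPs, and 198 ± 34.6 in CITED, and it is named here after its values were seen. None of these 4 channels passed in MDSC-NP-Blk against MDSC. Of the 6 other P2Y receptors, 2 were higher and 2 lower in CITED, and 1 was higher and 1 lower in MDSC-NP-Blk, against MDSC. None of these was called. Some listed genes had very few counts over the 12 libraries, so not passing does not show that they were unchanged. Among them were P2rx3 (35 counts), P2rx6 (19), and P2ry4 (2), and in the lists below Entpd2 (16), Alpl (19), Ampd1 (4), and Slc29a4 (31).

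In the list of ectonucleotidases, 3 of 8 other genes tested were higher and 2 lower in both groups with NPs than in MDSC, beside 22.2% and 22.2% of all genes in CITED and 19.9% and 18.6% in MDSC-NP-Blk. The list as written also holds Entpd5, which is not a surface enzyme and is 1 of the 2 that were lower. Acp3, a surface phosphatase that can also turn AMP into adenosine, had normalized counts of 4504, 4507, 4372, and 4548 in MDSC, 10242, 9458, 9626, and 11189 in MDSC-NP-Blk, and 9192, 9799.7, 10699, and 10032 in CITED. The libraries with NPs lay far above those of MDSC, and the 2 groups with NPs overlapped. Acp3 was 2.26-fold higher in MDSC-NP-Blk and 2.22-fold higher in CITED than in MDSC (log2 1.18 and 1.15, edgeR, adjusted p = 1.3e-18 and 6.6e-19), and the groups with NPs differed by -0.03 (95% interval -0.14 to 0.08, edgeR, adjusted p = 0.79). The enzymes that use extracellular NAD, Cd38 and Bst1, rose in steps instead. Cd38 went from a mean of 4954 ± 167 (SD, n = 4) to 6928 ± 267 and 10039 ± 612, and Bst1 from 6923 ± 289 to 9330.2 ± 181 and 13997 ± 118. In CITED against MDSC their log2 fold changes were 1.02 each (SE 0.0501 and 0.0448, edgeR, adjusted p = 2.6e-18 and 1.5e-19). Entpd5, a nucleotidase of the endoplasmic reticulum, fell from 1163 ± 33.3 to 711 ± 40.3 and 531 ± 30.2 (log2 -0.71 and -1.13 against MDSC, edgeR, adjusted p = 4.9e-10 and 4.9e-15).

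Inside the cell, 4 of 14 other purine enzymes tested were higher and 7 lower in CITED, and 3 higher and 4 lower in MDSC-NP-Blk, against MDSC, beside the same shares of all genes. Ahcy, which splits S-adenosylhomocysteine and so makes adenosine within the cell, fell from 1405 ± 122 (SD, n = 4) to 935 ± 31.5 and 690.0 ± 83.6, by -0.59 and -1.03 on the log2 scale (edgeR, adjusted p = 1.4e-07 and 4.9e-13). Of 10 genes for nucleoside transport and nucleotide release, 2 were higher and 5 lower in CITED, and 1 higher and 4 lower in MDSC-NP-Blk, beside the same shares. The 2 higher in CITED were Slc29a1 (725 ± 56.9, 926 ± 89.2, and 1166 ± 89.1) and Panx1 (558 ± 14.7, 573 ± 37.7, and 798 ± 31.6). Their log2 fold changes in CITED against MDSC were 0.68 and 0.52 (edgeR, adjusted p = 5.6e-09 and 5.4e-07). Neither was called, and both are named here after their values were seen. Slc28a2, a transporter that takes up adenosine and other purine nucleosides, had means of 643 ± 42.9, 371 ± 39.3, and 208 ± 25.7, and in CITED it was 3.09-fold below MDSC (log2 -1.63, SE 0.102, edgeR, adjusted p = 1.7e-15). Slc17a9, which loads ATP into vesicles, fell from 273 ± 41.1 to 169 ± 17.7 and 132 ± 23.8, and Abcc4, an exporter of cAMP, from 985 ± 106 to 543 ± 61.7 and 448 ± 31.8. In CITED against MDSC their log2 fold changes were -1.05 (SE 0.141) and -1.14 (SE 0.0902, edgeR, adjusted p = 1e-07 and 7.1e-13).

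The list of the cAMP pathway downstream of adenosine receptors moved in both directions, with 9 of 21 genes higher and 8 lower in CITED, and 7 higher and 6 lower in MDSC-NP-Blk, against MDSC, beside 22.2% and 22.2%, and 19.9% and 18.6%, of all genes. Its median log2 fold change was -0.087 and -0.002 in these comparisons. Pde4b, a phosphodiesterase that breaks down cAMP, had means of 1268 ± 141 (SD, n = 4) in MDSC, 2618 ± 167 with blank NPs, and 2491 ± 113 in CITED. Nr4a1, an immediate early transcription factor that cAMP can induce, had means of 285 ± 23.4, 724 ± 144, and 576 ± 54.5. Both rose in MDSC-NP-Blk against MDSC (log2 1.05 and 1.35, edgeR, adjusted p = 7.3e-15 and 1.8e-12). In CITED, Nr4a1 was lower than in MDSC-NP-Blk (log2 -0.33, SE 0.104, edgeR, adjusted p = 0.017), which no longer passed without MDSC-NP-Blk replicate 3 (log2 -0.20, edgeR, adjusted p = 0.16) or CITED replicate 2 (log2 -0.28, edgeR, adjusted p = 0.077), and with MDSC-NP-Blk replicates 1 and 4 alone (log2 -0.09, edgeR, adjusted p = 0.64).

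**Figure D4:**
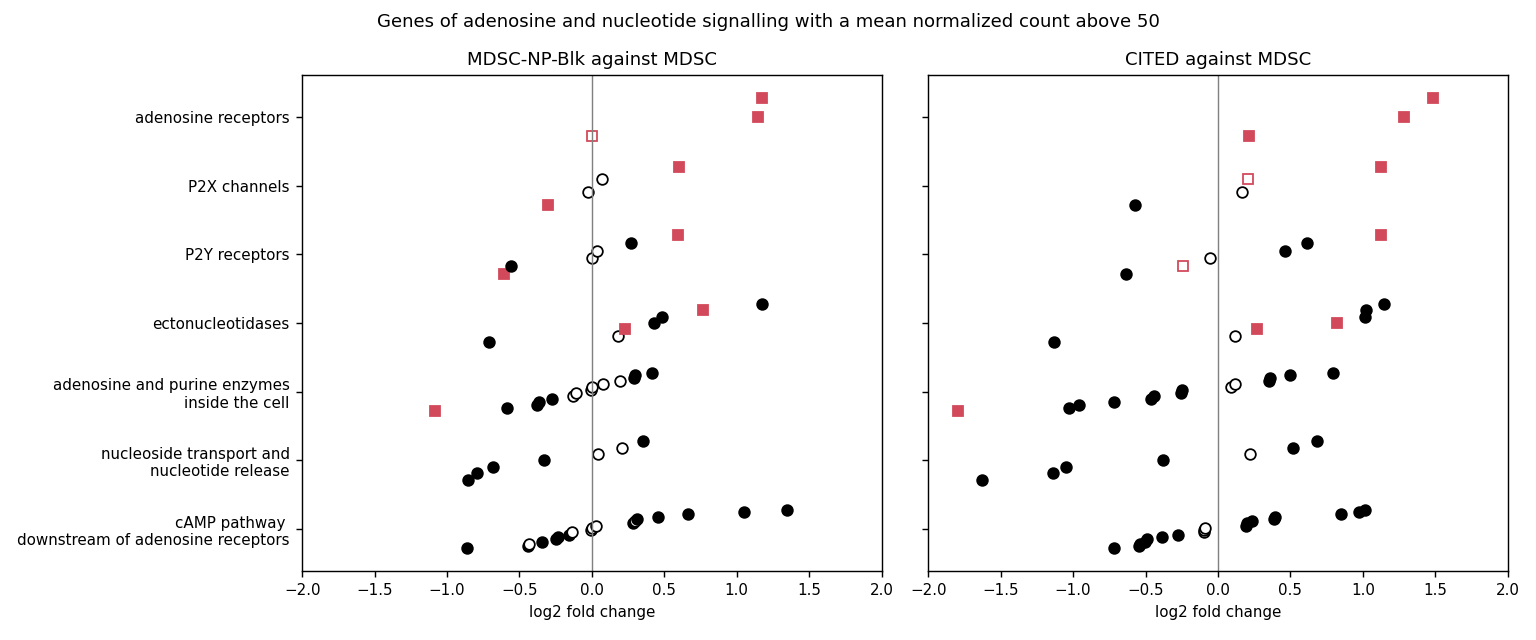
Log2 fold change (x axis) of the genes with a mean normalized count above 50 in 7 lists (y axis) in both groups with NPs against MDSC. Red squares are the 10 genes described above and black circles the others; filled symbols passed edgeR's quasi-likelihood test at an adjusted p below 0.05, and the height within a list only spreads the symbols. The cAMP list lies on both sides of 0: over all of its 21 tested genes, those below the level plotted included, 9 were higher and 8 lower in CITED than in MDSC.

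The genes whose log2 CPM followed Adora2b, P2rx4, and Entpd1 most closely over the 12 libraries were listed as a description. For Adora2b they were Egr1, Cd14, and Ltb (Pearson r = 0.996, 0.996, and 0.995), for P2rx4 they were Fkbp8, Cenpb, and Grn (r = 0.996, 0.996, and 0.995), and for Entpd1 they were Fosl2, Cd33, and Zfp36 (r = 0.997, 0.997, and 0.995). Of 10554 expressed genes, 662, 517, and 547 had an r above 0.95 with the 3 genes. The libraries fall into 3 groups and share their group means, so high values follow from any like difference between groups. Beside Adora2b, Egr1 and Cd14 changed by more, with log2 fold changes of 2.54 and 2.97 in CITED against MDSC (edgeR, adjusted p = 1e-22 and 1.1e-31).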

How the data were processed

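Poly(A)-enriched RNA of 12 libraries was sequenced as paired-end reads by a service provider. The reads were quantified by the authors with Salmon 1.4.0 against GENCODE transcripts of GRCm39 with decoys, imported into R 4.3.2 with tximport, and deposited as whole-number counts per gene symbol, without normalization. The GENCODE release, strand setting, and rounding are not given in the sources used here. Groups and replicate numbers were taken from the titles. An entry with a blank symbol held 0 counts and was left out.

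The 10 genes, the 7 pathway lists, and the marker lists were chosen with earlier results of these data known. Symbols whose 12 libraries held 2 or more counts together (17676) were fitted with group as the only term in edgeR 4.0.16 (R 4.3.3; TMM, glmQLFit, glmQLFTest), and p-values were adjusted by Benjamini and Hochberg over all of them. This step was tested on simulated data. The alternatives were DESeq2 1.42.0, DESeq2 size factors, upper-quartile factors, library totals, 2 other filters, the 8 libraries of a comparison alone, robust estimation, a replicate block, a correction for transcript length (loess, span 0.5), no fold threshold, and 12 fits that each left out 1 library. Fits with 1 pair of the MDSC-NP-Blk libraries were added after seeing the data. Named pathway genes had to be called, with a mean normalized count above 50, at most 3 per list and direction by lowest p. The genes listed by likeness were the 3 with the highest Pearson r to each of the 3 genes with the lowest p over the 3 groups, on log2 CPM with a prior count of 2. Lengths and positions are those of GENCODE M39, whose release may differ from that used for the counts. Figures were drawn with Python 3.11.15 and matplotlib 3.10.9. Floors of 3 counts cover counting error only.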

Additional observations from a re-analysis of the deposited data

How the results depend on the processing

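Adora2a, Adora2b, P2rx4, P2ry2, Entpd1, and Ada kept their direction and passed the test against MDSC under every alternative run, but with library totals in place of TMM factors P2rx4 and P2ry2 in CITED (0.854 each) and Adora2a and Adora2b in MDSC-NP-Blk (0.913 and 0.887) fell under a log2 fold change of 1, and Entpd1 in CITED reached it with the length correction (1.021). With library totals only, the median log2 fold change of all genes shifted by -0.274 for CITED and -0.262 for MDSC-NP-Blk, both against MDSC, and the sign turned for Adora3 (-0.061), P2rx7 (-0.066), and Nt5e (-0.005) in CITED and for Nt5e (-0.032) in MDSC-NP-Blk. Adora3 in MDSC-NP-Blk against MDSC, about 0, turned to 0.012 with upper-quartile factors, to 0.088 with MDSC-NP-Blk replicates 2 and 3 alone, and ranged from -0.044 to 0.046 when 1 library was left out. In CITED against MDSC-NP-Blk, those 2 replicates alone gave -0.018 for Entpd1, -0.053 for Nt5e, and 0.058 for Acp3, replicates 1 and 4 alone gave 0.009 for Pde4b, and Acp3 was 0.006 with the length correction and -0.064 to 0.025 with 1 library left out. None of these values passed the test.

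The number of the 10 genes lower in CITED than in MDSC was 2 and not 1 with library totals only, the length correction, without CITED replicate 4, and with MDSC-NP-Blk replicates 1 and 4 alone. With 1 library left out, 6 to 7, 6, and 4 to 7 of the genes were higher and 1 to 2, 2 to 3, and 1 were lower in the 3 comparisons, first CITED and then MDSC-NP-Blk against MDSC, and last the groups with NPs against each other. Over the whole table, 1765, 838, and 469 genes were called (1631 to 1772, 722 to 892, and 417 to 474 with 1 library left out), and 7862, 6815, and 3883 without the fold threshold. Deviations of same-numbered libraries correlated at -0.0598 to 0.14, and no comparison had every library correlating best with its own number. In CITED against MDSC-NP-Blk, 2 CITED libraries did, and the mean correlation was 0.051, beside -0.0166 for libraries of other numbers. Since the origin of the libraries was not stated, these values cannot settle whether replicate numbers pair the samples. With the replicate block, 1621, 766, and 441 genes were called and the counts of the 10 genes did not change. The cause of these changes was not tested. In each library, the deviation of expressed genes from their mean correlated with transcript length, at 0.218 to 0.346 in MDSC, -0.422 to 0.0919 with blank NPs, and -0.341 to -0.187 in CITED (Spearman's rho over 10542 genes).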
